A study of Mus musculus with 20 samples.

Results

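The MHC class II genes H2-Aa, H2-Ab1, H2-Eb1, H2-DMa, H2-DMb1, Cd74 and Ciita were followed by name through 20 RNA sequencing libraries of mouse renal myofibroblasts, as 7 of the 51826 genes in the deposited count table. The cells were primary cultures grown out of minced kidney pieces of C57BL/6J mice, either WT or WWP2-/-. The study reports that WWP2-/- cells lack the full-length and N isoforms of the E3 ubiquitin ligase WWP2. Each genotype was sequenced untreated and after TGFβ1, the cytokine used to activate myofibroblasts, with 5 libraries in each of the 4 groups. All groups share strain, cell type and culture method, and the labels give no age, sex, dose or duration. The targeted gene, Wwp2, was counted at 19.01 ± 1.72 CPM (counts scaled to library size, SD, n = 5) in WWP2-/- cells with TGFβ1 against 53.5 ± 2.89 CPM in WT cells, and at 20.5 ± 1.62 against 53.1 ± 4.14 CPM without it, so the transcript was reduced and still detected. Totals lay between 47520759 and 73063697 counts per library, and the 3 counts that a count of 0 allows came to at most 0.0631 CPM, a limit that covers counting error only. CPM values were scaled by the TMM method of edgeR. The labels do not say which libraries came from separate cultures or animals, so p-values measure the spread between these libraries.

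MHC class II molecules are pairs of an α and a β chain that carry peptides from endosomes to the surface of antigen-presenting cells, where CD4+ T cells read them. In C57BL/6 mice H2-Aa and H2-Ab1 encode the chains of the I-A molecule. H2-Eb1 encodes the β chain of I-E, a molecule this strain does not display because the gene of its α chain is inactive. Cd74 is the invariant chain that blocks the peptide groove during transport, and the H2-DM dimer, built from H2-DMa and H2-DMb1, exchanges its last fragment for antigen. Ciita is the coactivator that switches the whole group on. In the kidney the genes are known mainly from dendritic cells, macrophages and B cells, and interferon-gamma can induce them in stromal and epithelial cells.

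The class II genes are known for a shared promoter module in which an X box, bound by RFX and CREB factors, precedes a Y box, bound by NF-Y. RefSeq promoter windows on GRCm38.p6, from 250 bases before to 50 bases after the start, matched H2-DMa, H2-DMb1, H2-Aa and H2-Eb1, in 5 windows. H2-Ab1, Cd74 and Ciita were not among them. The letters CCAAT for the Y box, AACNGATG for an X box and TGACGTCA for the part of the X box that binds CREB were searched on both strands, and were chosen after these windows had been seen. An X motif up to 50 bases before a reversed CCAAT was found in H2-Aa, H2-Eb1 and H2-DMb1, and in 61 (0.186%) of all 32851 windows of this length. CCAAT alone was in 37.4% of windows, AACNGATG in 2.32% and TGACGTCA in 1.79%. In H2-DMb1 the X motif lay from -92 to -85 and the reversed CCAAT from -61 to -57 relative to the start. The windows of H2-DMa held neither X motif, and 1 of its 2 windows held a CCAAT. A match is a string of letters and not a measured binding site. The 100 bases from -120 to -21 of both genes whose stretch lies outside annotated exons are given because they show the spacing, with the motifs in capitals. H2-Aa lies on the minus strand at chr17:34287844-34287943 and holds TGACGTCA from -74 to -67 and a reversed CCAAT from -48 to -44. H2-Eb1 lies on the plus strand at chr17:34305747-34305846 and holds AACNGATG from -89 to -82, a reversed CCAAT from -59 to -55 and a second, forward CCAAT.
H2-Aa: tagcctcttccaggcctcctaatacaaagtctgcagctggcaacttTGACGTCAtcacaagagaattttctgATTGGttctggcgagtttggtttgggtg
H2-Eb1: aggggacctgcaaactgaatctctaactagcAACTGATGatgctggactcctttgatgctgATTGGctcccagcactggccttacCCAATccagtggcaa

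The cultures carried class II transcripts at very unequal levels. Cd74, the member with the highest counts, ranged from 0.0606 to 92.6 CPM, or from 3 to 5156 counts. The highest Cd74 level was in WWP2-/- TGFβ1 replicate 4, followed by WT untreated replicate 4 at 76.0 CPM, WWP2-/- TGFβ1 replicate 5 at 43.2 CPM, WWP2-/- untreated replicate 2 at 34.3 CPM, WT untreated replicate 1 at 18.8 CPM and WT untreated replicate 2 at 18.5 CPM. The seventh library had 7.10 CPM and the eighth 2.51 CPM. The same 6 libraries, from 3 of the 4 groups, were also the highest 6 for H2-Aa, H2-Ab1 and H2-Eb1, while they included 5 of the highest 6 for Ciita and 4 of the highest 6 for both H2-DMa and H2-DMb1.

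The chains of the antigen-presenting molecules followed this pattern from near 0. H2-Aa, the I-A α chain, reached 10.8 CPM and had no count in 6 libraries and at most 3 counts in 8. H2-Ab1, its β chain, ranged from 0.0401 to 10.99 CPM and exceeded 1 CPM in 7 libraries. H2-Eb1, the I-E β chain, ranged from 0.201 to 7.11 CPM and exceeded 1 CPM in 9. H2-Aa was thus at or near the floor in 8 cultures, while H2-Eb1 had at least 10 counts in every one and H2-Ab1 more than 3 in all but 1.

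The peptide exchange genes behaved otherwise. H2-DMa was present in every library at 3.08 to 8.84 CPM, a range of 2.87-fold, and H2-DMb1 at 3.49 to 12.6 CPM, a range of 3.61-fold. Ciita was below 1 CPM in all 20 libraries, between 0.0401 and 0.900 CPM and at most 58 counts. The transactivator was thus measured on few counts in each culture.

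Per kilobase of exon, the order of the genes depended on the culture. Over the 20 libraries the median RPKM was 4.99 for H2-DMb1, 1.66 for H2-DMa, 1.08 for Cd74, 0.420 for H2-Eb1, 0.166 for H2-Ab1, 0.0393 for H2-Aa and 0.0233 for Ciita. In WT untreated replicate 4, where class II was high, Cd74 had 45.2 RPKM against 7.49 for H2-DMb1, 4.28 for H2-Ab1, 3.66 for H2-Eb1 and 2.85 for H2-Aa. In WT TGFβ1 replicate 4, where it was low, H2-DMb1 had 5.89 RPKM and Cd74 0.0361. H2-DMb1 and H2-DMa led in cultures with little class II, and the invariant chain led in those with much.

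**Figure D1:**
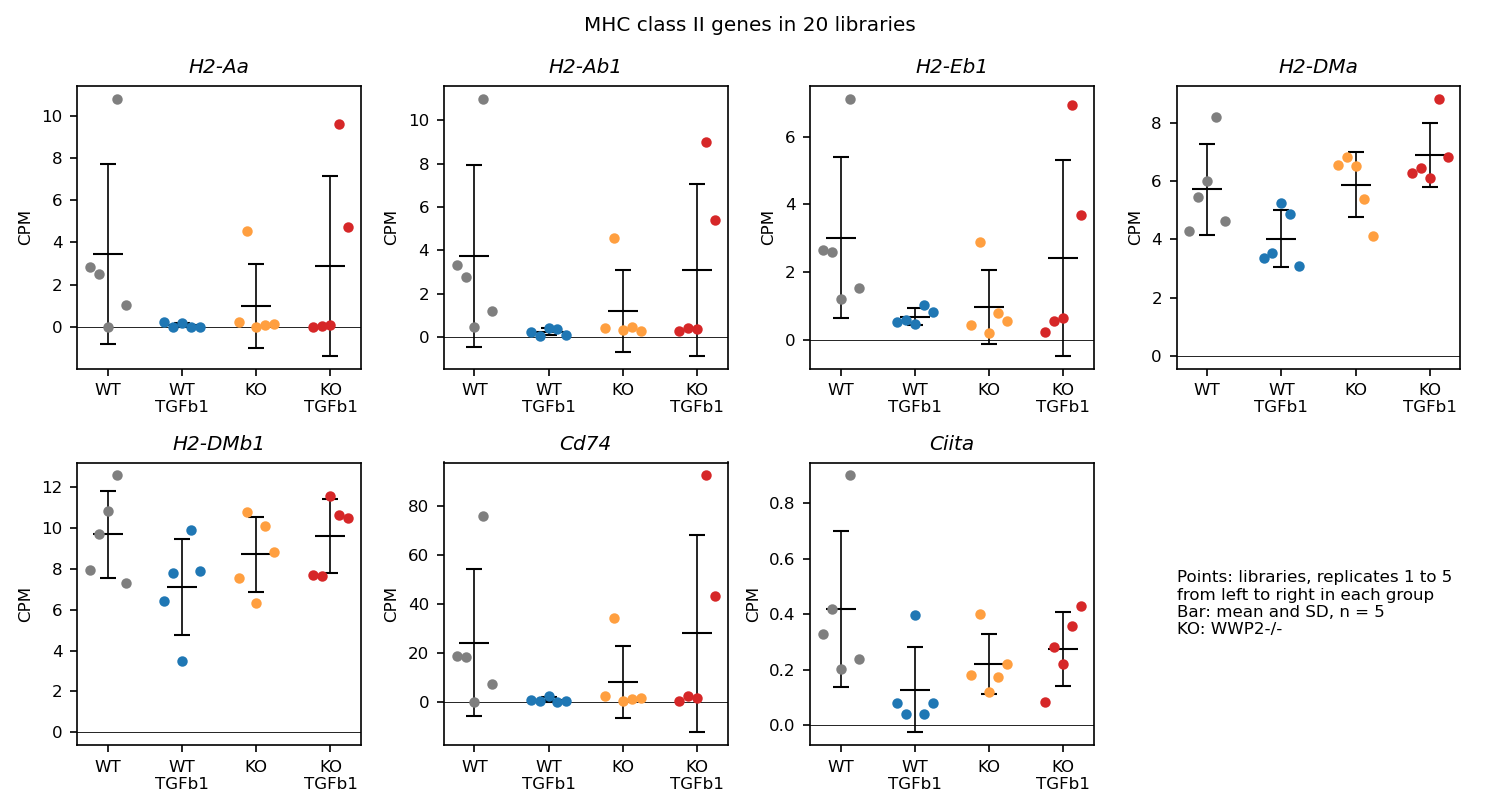
CPM of the 7 MHC class II genes in the 4 groups, with 1 point per library in the order of the replicate number and bars for the mean and SD (n = 5); KO is WWP2-/-. In H2-Aa, H2-Ab1, H2-Eb1 and Cd74 the means of 3 groups rest on 1 to 3 high libraries each, whereas H2-DMa and H2-DMb1 are counted in every library.

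The first comparison asks whether class II expression differs between genotypes in TGFβ1-treated cells. All 7 members had a higher fitted level in WWP2-/- cells, with a median log2 fold change of 1.79 against 0.0504 over all genes tested, and 1 of them, H2-DMa, passed the test. Of all 20407 genes tested, 1238 (6.07%) passed in either direction, 429 higher and 809 lower. At an unadjusted p below 0.05 the members counted 5 of 7, where all genes gave 24.7%. The test was the quasi-likelihood F test of edgeR on all 20 libraries, and p-values were adjusted over all genes tested by the Benjamini-Hochberg method.

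H2-DMa, the α chain of the peptide exchange dimer, was counted at 6.30, 6.45, 6.11, 8.84 and 6.85 CPM in the WWP2-/- TGFβ1 libraries 1 to 5. In the WT TGFβ1 libraries it was at 3.35, 3.55, 5.25, 4.89 and 3.08 CPM. The lowest WWP2-/- library lay above the highest WT library, a separation that 5.67% of all genes tested showed in this comparison in either direction. The mean was 6.91 ± 1.11 CPM against 4.02 ± 0.977 CPM (SD, n = 5), the log2 fold change 0.78 (SE 0.21) and the adjusted p 0.0343 by edgeR. The exact two-sided permutation test gave p = 0.00794, the smallest that 5 libraries against 5 allow, as 1 of 28 such tests on the members. The call did not stand when WWP2-/- TGFβ1 replicate 2, 4 or 5 or WT TGFβ1 replicate 1, 2 or 5 was left out, with edgeR adjusted p between 0.0542 and 0.0957. It was also lost without a filter on low counts (adjusted p = 0.0590), with only these groups in the fit (0.0817) and with Xist as a covariate (0.102, log2 fold change 0.63).

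H2-DMa overlaps another gene. Of its 3448 exon bases, 360 (10.4%) are shared with Brd2, a chromatin reader on the opposite strand, and the strand setting of the counting is not given in the sources used here, so reads from the shared bases cannot be assigned. With TGFβ1, Brd2 reached 381 ± 48.2 CPM in WWP2-/- libraries against 331 ± 26.8 CPM in those of WT, with a log2 fold change of 0.20 (SE 0.12) and an edgeR adjusted p of 0.320.

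Cd74, the invariant chain, was at 0.387, 2.20, 1.43, 92.6 and 43.2 CPM in the 5 WWP2-/- TGFβ1 libraries and at 0.807, 0.160, 2.51, 0.0606 and 0.225 CPM in the WT TGFβ1 libraries. Replicates 4 and 5 of WWP2-/- cells lay above all WT libraries and the other 3 overlapped with them. The mean of 28.0 ± 40.4 CPM against 0.753 ± 1.03 CPM (SD, n = 5) gave a log2 fold change of 5.21 (SE 1.77) that did not pass, with an edgeR adjusted p of 0.0823 and an exact permutation p of 0.0952. H2-Ab1 was at 0.286, 0.432, 0.343, 8.98 and 5.39 CPM in WWP2-/- and at 0.222, 0.0401, 0.419, 0.384 and 0.102 CPM in WT libraries, and its log2 fold change was 3.71 (SE 1.20) with an edgeR adjusted p of 0.0692. H2-Aa was at 0, 0.0499, 0.0605, 9.61 and 4.75 CPM in WWP2-/- and at 0.222, 0, 0.180, 0 and 0 CPM in WT libraries, with a log2 fold change of 5.13 (SE 2.01). The mean differences of these genes were carried by the same pair of WWP2-/- cultures.

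The calls of Cd74 and H2-Ab1 depended on the test. With the Wald test of DESeq2, H2-Ab1 (log2 fold change 3.71, adjusted p = 0.00496) and Cd74 (5.21, adjusted p = 0.00239) passed beside H2-DMa, as did 13.1% of all genes tested. By edgeR, Cd74 passed without WWP2-/- TGFβ1 replicate 1 (adjusted p = 0.0489) or WT TGFβ1 replicate 3 (0.0471), H2-Ab1 without WWP2-/- TGFβ1 replicate 1 (0.0419), and Ciita without WT TGFβ1 replicate 3 (0.0206, log2 fold change 2.13). Across the 10 fits that left out 1 of these libraries, the log2 fold change of Cd74 ran from 3.94 to 6.45, and with Xist as a covariate it was 2.50 (adjusted p = 0.387). H2-Eb1 (2.42 ± 2.88 against 0.698 ± 0.239 CPM), H2-DMb1 (9.62 ± 1.83 against 7.11 ± 2.37 CPM) and Ciita (0.276 ± 0.132 against 0.128 ± 0.153 CPM) did not pass, with edgeR adjusted p of 0.183, 0.262 and 0.278.

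**Figure D2:**
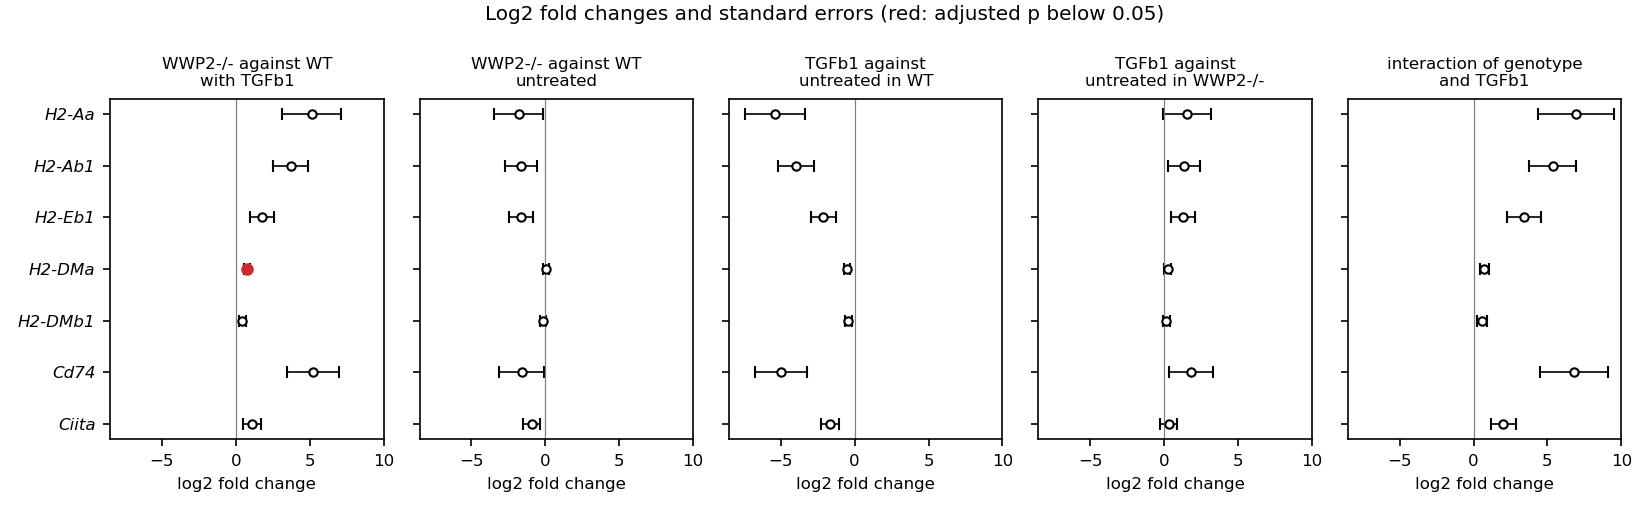
Fitted log2 fold changes (x axis) of the 7 genes with their standard errors in the 5 comparisons, each over 5 libraries per group. The filled red point, H2-DMa in TGFβ1-treated WWP2-/- against WT cells, is the only value past an adjusted p of 0.05 in edgeR.

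Without TGFβ1 the fitted levels lay the other way. In untreated cells 6 of the 7 members had a lower level in WWP2-/- than in WT libraries, with a median log2 fold change of -1.61 against 0.0760 over all genes, and none passed, while 148 (0.725%) of the genes tested did. None of the 7 had an unadjusted p below 0.05 either, where 14.9% of all genes had, and DESeq2 called none. Cd74 was at 2.27, 34.3, 0.302, 1.26 and 1.38 CPM in WWP2-/- libraries and at 18.8, 18.5, 0.0613, 76.0 and 7.10 CPM in WT libraries, so the values of the genotypes overlapped. H2-Eb1 had the lowest p, with 0.980 ± 1.09 CPM against 3.02 ± 2.37 CPM (SD, n = 5), a log2 fold change of -1.62 (SE 0.81) and an edgeR adjusted p of 0.353. In 4 of 5 WWP2-/- libraries H2-Eb1 was below all WT libraries, and WWP2-/- untreated replicate 2 stood among them. H2-DMa differed by less than its spread, with a mean of 5.89 ± 1.12 CPM for WWP2-/- against 5.72 ± 1.56 CPM for WT, and the sign of its difference turned with the library left out. No member separated the genotypes without overlap, as 2.79% of all genes did.

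The response to TGFβ1 was compared next within each genotype. In WT cells all 7 members had a lower fitted level with TGFβ1, with a median log2 fold change of -2.11 against 0.0162 over all genes. None of them passed, in a comparison in which 0% of the genes tested passed in edgeR (27 genes with DESeq2). At an unadjusted p below 0.05 the members counted 6 of 7, where all genes gave 1397, or 6.85%. Cd74 was 0.753 ± 1.03 CPM with TGFβ1 against 24.1 ± 30.1 CPM without it (SD, n = 5), a log2 fold change of -4.99 (SE 1.75) with an edgeR adjusted p of 0.641 and an exact permutation p of 0.0397. The untreated replicate 3 had 0.0613 CPM of Cd74, close to the lowest treated library at 0.0606 CPM.

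H2-Ab1 and H2-Eb1 were below every untreated WT library in all 5 TGFβ1-treated WT libraries, which 1.35% of all genes tested showed in either direction. H2-Eb1 was at 2.65, 2.59, 1.21, 7.11 and 1.55 CPM untreated and at 0.544, 0.581, 0.479, 1.05 and 0.837 CPM with TGFβ1. H2-Ab1 was at 3.31, 2.78, 0.450, 10.99 and 1.18 CPM untreated against a highest treated value of 0.419 CPM, so its groups were separated by 22 counts in the lowest untreated library against 21 in the highest treated one. The exact permutation test gave p = 0.00794 for each, its smallest value, and the edgeR adjusted p was 0.641 for H2-Ab1 and 0.644 for H2-Eb1. H2-DMa was at 4.02 ± 0.977 CPM with TGFβ1 against 5.72 ± 1.56 CPM without it, and its exact permutation p was 0.0635.

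In WWP2-/- cells the values leaned upwards with TGFβ1, and again no member passed. All 7 had a positive log2 fold change, with a median of 1.30 against 0.00102 over all genes, 0% of the genes tested passed in edgeR (44 genes with DESeq2), and none of the members had an unadjusted p below 0.05, where 713 genes or 3.49% had. The exact permutation p of Cd74 was 0.286, with 28.0 ± 40.4 CPM against 7.91 ± 14.8 CPM (SD, n = 5). No member was free of overlap, as 0.377% of genes were.

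The interaction of genotype and TGFβ1, which tests whether the response differed between genotypes, was positive for all 7 members, with a median log2 value of 3.41 against -0.0185 over all genes. It passed for none of them and for 0% of the genes tested in edgeR (10 genes with DESeq2). At an unadjusted p below 0.05 it counted 6 of the 7, against 1424 genes or 6.98% of all genes. Cd74 had an interaction of 6.82 (SE 2.29) on the log2 scale with an edgeR adjusted p of 0.549, and H2-Ab1 one of 5.36 (SE 1.61) with 0.511. These comparisons share control groups, so their signs are not separate observations.

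Summed markers of macrophages and of tubular epithelium were high in the libraries with much class II. So was the dendritic cell sum, mostly through Itgax (CD11c), which some macrophages also express. The macrophage sum was highest in 5 of the 6 libraries with the most Cd74, from 1285 to 4395 CPM, and the sixth, WT untreated replicate 1 at 960 CPM, came after WWP2-/- TGFβ1 replicate 2 at 1067 CPM. The 15 macrophage markers summed to 166 to 4395 CPM in untreated WT, 67.5 to 495 CPM in TGFβ1-treated WT, 86.3 to 2008 CPM in untreated WWP2-/- and 83.5 to 3895 CPM in TGFβ1-treated WWP2-/- libraries. Between genotypes under TGFβ1 the log2 fold change was positive for 15 of 15 macrophage markers (median 2.58), as for all 7 class II members. Without TGFβ1 it was positive for 0 of 15 (median -0.844) and for 1 class II member, H2-DMa (0.0417). Of the 15 markers 0 passed in any of the 5 comparisons. Cd68, a lysosomal macrophage protein, was at 52.1 ± 44.2 CPM in WWP2-/- against 9.08 ± 6.65 CPM in WT cells with TGFβ1 (edgeR adjusted p = 0.0661). Fcgr1, an IgG receptor, was at 2.38 ± 2.52 against 0.301 ± 0.168 CPM (0.0685), Adgre1, the F4/80 antigen, at 14.3 ± 7.61 against 4.30 ± 1.88 CPM (0.0729), and Fcer1g, a receptor signalling chain, at 28.4 ± 27.1 against 4.39 ± 3.52 CPM (0.0841). In bulk libraries a larger number of class II-bearing cells and more class II RNA per cell cannot be told apart.

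Ptprc, the leukocyte antigen CD45, was above 10 CPM in 7 libraries, a limit chosen after the values were seen, and these included the 6 with the most Cd74. The seventh, WWP2-/- TGFβ1 replicate 2, had 12.3 CPM of Ptprc and 2.20 CPM (132 counts) of Cd74, rank 10 among the 20 libraries. The source of its class II transcripts was not tested. H2-DMa spanned 4.28 to 8.84 CPM in the 7 libraries and 3.08 to 6.55 CPM in the other 13. In those 13, with 2 WWP2-/- and 5 WT libraries left under TGFβ1, the log2 fold change between genotypes was 0.28 for Cd74 in place of 5.21, 0.42 for H2-Ab1 in place of 3.71, -1.42 for H2-Aa, -0.60 for H2-Eb1 and 0.63 for H2-DMa (edgeR adjusted p = 0.241). Since the limit removes the 6 libraries with the most Cd74, H2-Aa, H2-Ab1 and H2-Eb1, the change of these 4 values was fixed by the choice and is a description only. The H2-DMa level of WWP2-/- TGFβ1 replicates 1 and 3, which had 1.36 and 2.82 CPM of Ptprc, was 6.30 and 6.11 CPM. Both lay above every TGFβ1-treated WT library, as all WWP2-/- libraries with TGFβ1 did, so this is no separate observation. Whether the H2-DMa difference depends on leukocyte content was not tested.

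**Figure D3:**
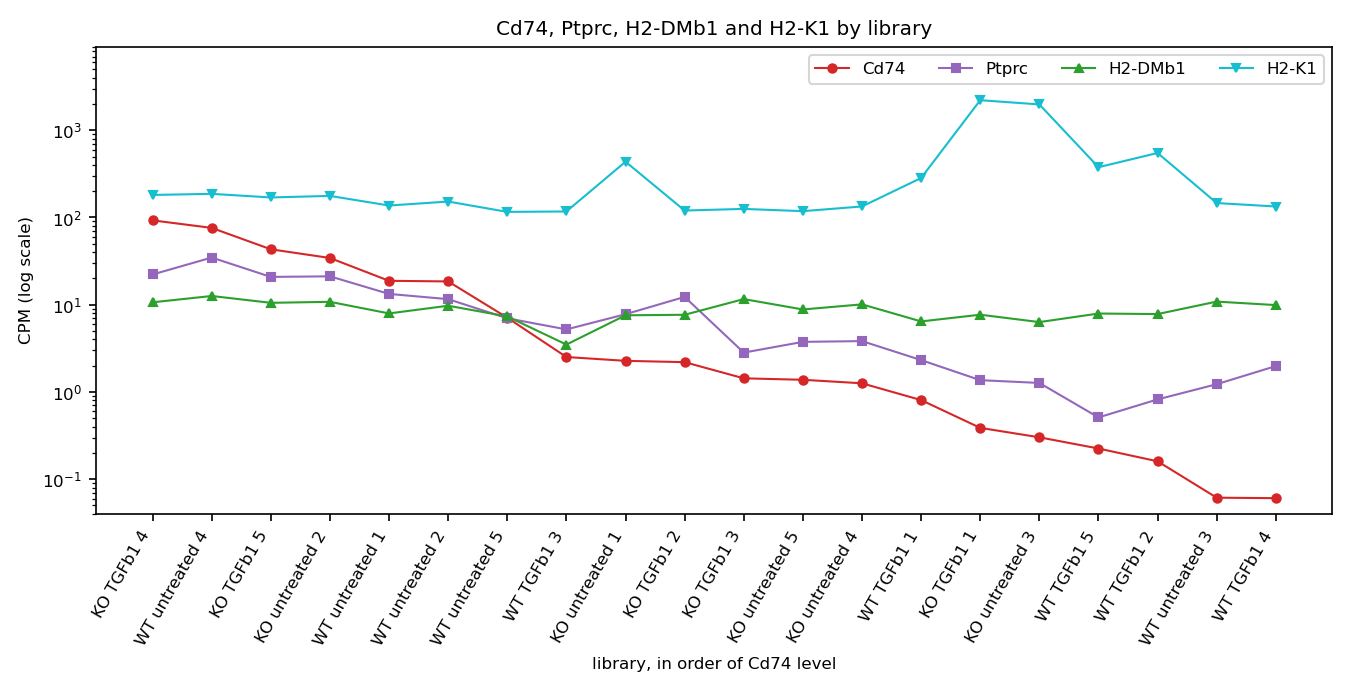
CPM on a log axis of Cd74, Ptprc, H2-DMb1 and H2-K1 in the 20 libraries, ordered from the highest to the lowest Cd74 level; KO is WWP2-/-. Ptprc broadly follows the order of Cd74, from 22.2 CPM in the first library to 1.98 CPM in the last, H2-DMb1 stays between 3.49 and 12.6 CPM, and H2-K1 peaks at 2210 CPM in a library with 0.387 CPM of Cd74.

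The dendritic cell markers in sum were highest in exactly the 6 libraries with the most Cd74, at 26.1 to 62.0 CPM against at most 23.8 CPM elsewhere. Most of this sum was Itgax, at 15.5 to 54.5 CPM in the 7 libraries above 10 CPM of Ptprc and at most 9.75 CPM in the others. The other members did not follow it. Zbtb46 was at 6.06 to 9.25 CPM in those 7 against 5.37 to 11.4 CPM in the others, and Xcr1 and Clec9a had their highest values in the others. The defining dendritic cell markers Flt3 and Cd209a, the B cell marker Ms4a1 and the T cell markers Cd3e, Cd3d, Cd3g and Cd8a had at most 3 counts in every library. Itgax, the integrin CD11c of dendritic cells and some macrophages, was at 20.7 ± 20.4 against 1.99 ± 2.39 CPM between genotypes with TGFβ1. It did not pass (edgeR adjusted p = 0.135), nor did the chemokine receptor Xcr1 (0.216). The transcription factor Zbtb46 leaned the other way, at 7.01 ± 1.28 CPM in WWP2-/- against 9.75 ± 1.49 CPM in WT libraries, and did not pass either (0.0956). Clec9a was at most 0.532 CPM. The B cell markers summed to between 0.0739 and 18.1 CPM. The upper end was Pax5, at 17.9 CPM in WWP2-/- TGFβ1 replicate 1 and 16.8 CPM in WWP2-/- untreated replicate 3, both with low class II. The T cell list reached 3.55 CPM, and its members Cd4 and Trac did not pass (edgeR adjusted p = 0.270 and 0.693 at the lowest).

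The tubular epithelial markers were highest in the same 6 libraries as Cd74, at 285 to 719 CPM in sum against at most 281 CPM elsewhere. By group they summed to 33.8 to 427 CPM in untreated WT, 39.1 to 201 CPM in TGFβ1-treated WT, 16.5 to 719 CPM in untreated WWP2-/- and 13.998 to 554 CPM in TGFβ1-treated WWP2-/- libraries, with Slc34a1 at no more than 3 counts anywhere and none of 8 tested called. Krt18 was at 14.2 ± 14.8 against 1.94 ± 2.57 CPM between genotypes with TGFβ1 (edgeR adjusted p = 0.142). The fibroblast markers, which relate to the labelled cell type, came to 4332 to 35390 CPM in sum, but single members were low in some libraries. Acta2 spanned 38.9 to 3283 CPM in untreated and 50.4 to 3430 CPM in TGFβ1-treated WWP2-/- libraries. In WT libraries it spanned 1016 to 1305 CPM untreated and 1432 to 2020 CPM with TGFβ1. Lum, Pdgfra and Thy1 fell to 0.0148, 0.543 and 0.599 CPM at their lowest. Of the fibroblast markers, Col1a2 (log2 fold change -2.63, adjusted p = 0.0142) and Col1a1 (-1.98, 0.0492), the chains of type I collagen, were lower in TGFβ1-treated WWP2-/- cells by edgeR. Col3a1 and Thy1 did not pass. The Col1a1 call was lost in 8 of the 10 fits that left out 1 library and the Col1a2 call in 0. Neither passed with Xist as a covariate (Col1a2 -2.13, edgeR adjusted p = 0.0899, and Col1a1 -2.08, 0.157). Neither passed without the 7 libraries above 10 CPM of Ptprc (Col1a2 -1.92, 0.0835, and Col1a1 -1.38, 0.366). That fit kept 2 WWP2-/- and 5 WT libraries with TGFβ1, so a call is easily lost in it. Of the 6 endothelial markers, Tek (-2.87, edgeR adjusted p = 0.0135) and Kdr (-1.76, 0.0351) were lower under TGFβ1, where 6.07% of all genes passed. Tek was also lower without it, where 0.725% passed. The list did not lean lower under TGFβ1, as 4 of the 6 were positive and the median log2 fold change was 0.528. Cdh5 and Tie1 did not pass in any comparison. The call of Kdr was lost in 6 of its 10 fits with 1 library left out, that of Tek in 0 with TGFβ1 and in 7 without. With Xist as a covariate neither passed under TGFβ1 (Tek -1.58, edgeR adjusted p = 0.179, and Kdr -1.08, 0.203). Without the 7 libraries Tek (-3.00, 0.0783) and Kdr (-2.01, 0.190) did not pass under TGFβ1. Their log2 fold changes were no smaller in size there, with 2 WWP2-/- libraries left. The part of each of these cell types in the class II values was not tested.

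Class I antigen presentation, which displays cytosolic peptides to CD8+ T cells, was highest in other libraries than class II. Summed over its 16 genes it was highest in WWP2-/- TGFβ1 replicate 1, WWP2-/- untreated replicates 3 and 1 and WT TGFβ1 replicates 2, 5 and 1, at 2532 to 11062 CPM against at most 1913 CPM elsewhere, and it lay between 1365 and 1626 CPM in the 6 libraries with the most Cd74. H2-K1, a classical class I heavy chain that was picked for description after its values were seen, was at 2210 CPM in WWP2-/- TGFβ1 replicate 1 and 1977 CPM in WWP2-/- untreated replicate 3, where Cd74 was at 0.387 and 0.302 CPM. In the 6 libraries with the most Cd74 it lay between 137 and 187 CPM. Of the 16 genes of the class I pathway 0 passed in any comparison, and their median log2 fold change was -0.331 between genotypes with TGFβ1, 0.924 without it and 1.08 for TGFβ1 in WT cells, each opposite in sign to the class II median. H2-Q7, H2-Q6 and H2-Q4, near-identical class I genes between which reads may be split, and Nlrc5, the class I transactivator, were the nearest to the threshold in this list. Without TGFβ1, Nlrc5 had means of 14.8 ± 24.1 CPM for WWP2-/- against 1.96 ± 1.05 CPM for WT (edgeR adjusted p = 0.268).

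The interferon-gamma pathway lies upstream of Ciita and of class I alike, and the sum over its 21 genes was highest in the same 6 libraries as that of class I, at 1176 to 3515 CPM against at most 1081 CPM elsewhere. Cxcl9, an interferon-gamma-induced chemokine likewise picked after its values were seen, had at most 0.0184 CPM in the 7 libraries above 10 CPM of Ptprc and 38.2 CPM in WWP2-/- TGFβ1 replicate 1, 30.8 CPM in WT TGFβ1 replicate 2 and 23.4 CPM in WWP2-/- untreated replicate 3. In those 3 libraries H2-Aa had 0 counts, Cd74 23, 8 and 15 counts, and H2-Ab1 17, 2 and 15 counts. The rest of the 6 libraries were WWP2-/- untreated replicate 1 and WT TGFβ1 replicates 1 and 5. They had 16, 11 and 0 counts of H2-Aa, 175, 40 and 11 of Cd74, and 31, 11 and 5 of H2-Ab1. The relation of interferon-gamma to the class II levels was not tested. Of the 21 genes 1 passed, where 6.07% of all genes did in this comparison. It was Ifngr2, the signal-transducing receptor chain, at 176 ± 49.9 against 123 ± 13.1 CPM (log2 fold change 0.52, adjusted p = 0.0474), a call that was lost in 7 of the 10 fits with 1 library left out and with Xist as a covariate (0.38, 0.155). Irf8, a factor of myeloid cells, and Ido1 had positive fold changes that did not pass (0.121 and 0.140). The list as a whole leaned lower between genotypes with TGFβ1. Of its 21 genes 6 had a positive log2 fold change, and the median was -0.517 against 0.0504 over all genes.

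Of the proteins that assemble on the class II promoter with Ciita, 10 were counted and 1 passed between genotypes under TGFβ1, where 6.07% of all genes did. Kat2b, an acetyltransferase, was lower in WWP2-/- cells, at 45.9 ± 5.87 against 78.5 ± 22.1 CPM (log2 fold change -0.78, SE 0.16, edgeR adjusted p = 0.0138), and its call stood in all 10 fits that left out 1 library. Kat2b did not pass with only these groups in the fit (log2 fold change -0.77, edgeR adjusted p = 0.0565) or with Xist as a covariate (-0.72, 0.0537). Without the 7 libraries above 10 CPM of Ptprc it did not pass either (-0.92, 0.0964). That fit kept 2 WWP2-/- and 5 WT libraries with TGFβ1, so losing the call there says little about the size of the difference. Rfxank, a subunit of RFX, was at 9.76 ± 0.768 against 8.07 ± 1.06 CPM, and Nfyc and Nfyb, subunits of NF-Y, at 26.4 ± 2.03 against 29.8 ± 1.63 CPM and 26.0 ± 2.04 against 29.4 ± 5.27 CPM, with edgeR adjusted p from 0.225 to 0.297. The list had a median log2 fold change of -0.0969, against 1.79 for the class II members. All 10 were expressed in every culture, the lowest single value being 6.28 CPM, for Rfxank.

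Among the other class II loci and the proteins that prepare their peptides, 13 were in the table, 8 could be tested and 0 passed in any comparison. H2-Ea-ps, the inactive I-E α chain, H2-Eb2, and H2-Oa and H2-Ob, which form the inhibitor of H2-DM in B cells, had at most 3 counts in every library. H2-DMb2, a near copy of H2-DMb1 between which reads may be split, reached 19 counts. Ctss, the protease cathepsin S that trims Cd74, had means of 167 ± 170 CPM for WWP2-/- against 16.7 ± 14.2 CPM for WT with TGFβ1 (edgeR adjusted p = 0.0716), and its highest value of 518 CPM was in WT untreated replicate 4. March1, a ligase that removes class II from the surface, was at 2.70 ± 2.02 against 0.498 ± 0.345 CPM (0.0647). Ctsb and Ctsl, cathepsins of all cell types, were at 2584 ± 728 against 1664 ± 89.3 CPM (0.0847) and 2988 ± 870 against 1965 ± 280 CPM (0.0896).

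Costimulatory genes, whose proteins give the second signal to T cells, were tested next. Of 7 listed 6 could be tested and 1 passed, where 6.07% of all genes did. It was Cd40, the receptor for T cell help, at 9.53 ± 12.2 against 0.965 ± 0.400 CPM between genotypes with TGFβ1 (log2 fold change 3.30, SE 0.92, edgeR adjusted p = 0.0416). Its level was 30.9, 2.91, 8.13, 2.98 and 2.71 CPM in the WWP2-/- libraries, all above the highest WT library at 1.66 CPM, as in 5.67% of all genes in either direction. The call was lost in 6 of the 10 fits that left out 1 library, with adjusted p up to 0.0993, with the replicate number as a block (0.0827), without a filter (0.0537) and without the 7 libraries above 10 CPM of Ptprc (0.0614, log2 fold change 4.35). The last of these fits kept 2 WWP2-/- libraries with TGFβ1, and its log2 fold change was no smaller. Without WWP2-/- TGFβ1 replicate 1 the log2 fold change was 2.10 (0.0912). The highest Cd40 value was in replicate 1, whose class II level was low. Icam1, an adhesion molecule, was at 28.3 ± 10.1 against 51.2 ± 14.2 CPM (0.0538), Cd86 at 0.649 ± 0.415 against 0.104 ± 0.138 CPM (0.0743), and Tnfsf4 at 0.285 ± 0.461 against 0.0443 ± 0.0389 CPM (0.105).

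**Figure D4:**
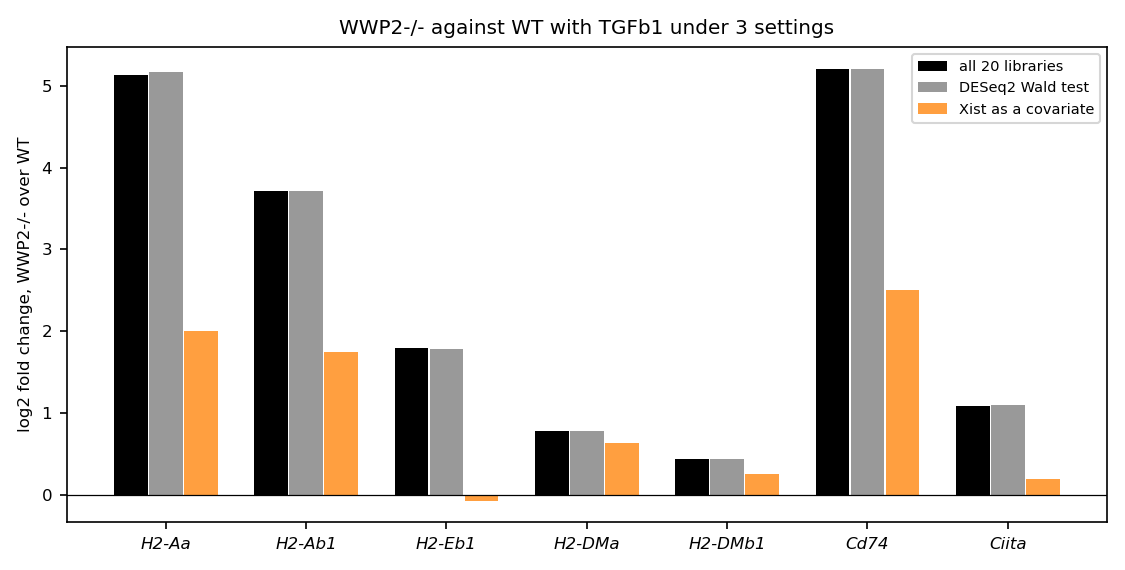
Fitted log2 fold change (y axis) of the 7 genes in TGFβ1-treated WWP2-/- against WT cells with all 20 libraries in edgeR, with DESeq2, and with Xist as a covariate in edgeR. H2-DMa goes from 0.78 to 0.63 with the covariate, Cd74 from 5.21 to 2.50 and H2-Eb1 from 1.79 to -0.07.

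Xist, a transcript of female cells, was also unevenly spread over the groups. It was found above 1 CPM in 4 of 5 WT libraries of either treatment, in 2 untreated WWP2-/- libraries and in 1 with TGFβ1. Among TGFβ1-treated libraries with Xist, H2-DMa was at 6.30 CPM in the WWP2-/- library and at 3.08 to 4.89 CPM in the 4 WT libraries, and among those without it, at 6.11 to 8.84 CPM in 4 WWP2-/- libraries and 5.25 CPM in the WT library. The order of the genotypes was the same in both, which was fixed because the genotypes did not overlap in H2-DMa, and 1 arm of each held 1 library. Cd74 was at 0.387 CPM in the WWP2-/- and at 0.0606 to 0.807 CPM in the WT libraries with Xist, and at 1.43 to 92.6 CPM against 2.51 CPM in those without, so its ranges overlapped in both.

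Among all genes, the profiles most like that of Cd74 were sought by rank over the 20 libraries, among 13513 genes with a mean of at least 1 CPM. The closest were Entpd1, the ectonucleotidase CD39, with Spearman's rho of 0.971, Cytip (0.965), Themis2 (0.961), Mpeg1 (0.955), a pore-forming protein of macrophages, and Runx3 (0.955). Among the members themselves rho with Cd74 was 0.938 for H2-Aa, 0.887 for Ciita, 0.800 for H2-Ab1 and 0.590 for H2-Eb1, but 0.556 for H2-DMa and 0.259 for H2-DMb1. For H2-DMa the closest genes were others, Mterf1a (0.928), Gnpnat1 (0.926), 2310061I04Rik (0.923), Thoc1 (0.914), which belongs to the complex that exports mRNA, and Mrpl49 (0.913), a mitochondrial ribosomal protein. These values are given as descriptions, since the points share libraries, depth and culture makeup. H2-DMa and H2-DMb1 encode the partners of 1 dimer, and rho between them was 0.402.

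In the GENCODE M21 annotation of GRCm38, 5 of the members lie within the H2 complex on chromosome 17. H2-DMa spans 34119541 to 34139101, H2-DMb1 34153072 to 34160230, H2-Ab1 34257689 to 34269419 and H2-Eb1 34305867 to 34316674 on the plus strand, and H2-Aa 34282744 to 34287823 on the minus strand. Ciita lies on chromosome 16 from 10480059 to 10528418 and shares 3.45% of its exon bases with Dexi on the opposite strand. With TGFβ1, Dexi was at 15.1 ± 1.67 CPM in WWP2-/- against 20.9 ± 2.85 CPM in WT libraries. Its log2 fold change was -0.47 (edgeR adjusted p = 0.0267), where 6.07% of all genes passed. Reads from the shared bases cannot be assigned, which matters more for Ciita, with at most 58 counts in a library. Cd74 lies on chromosome 18 from 60803848 to 60812652. All values are counts over exons.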

How the data were processed

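Libraries were made from poly-A RNA. The authors used STAR to align the reads to GRCm38 and featureCounts to assign them to exons, and the deposited table holds raw counts per gene. Paired-end, exon-level counting is stated, and the strand option is not given in the sources used here. Gene names and exon lengths came from GENCODE M21, which names 51633 of the 51826 genes. Here the counts were analysed in R 4.3.3 with edgeR 4.0.16, and DESeq2 1.42.0 as an alternative (limma 3.58.1 was loaded by edgeR). The filter asked for 5 or more counts in 5 or more libraries, and 20407 genes passed. Libraries were scaled by TMM and all 20 were fitted with 4 groups and no block, using glmQLFit and glmQLFTest with an adjusted p threshold of 0.05. Standard errors were the log2 fold change divided by the square root of F. CPM values used effective library sizes, and RPKM divided them by kilobases of merged exons. Totals of 47520759 counts or more make counting error small except for genes near 0. Exact permutation tests were two-sided. Alternatives were DESeq2 size factors, no filter, at least 10 counts in every library, the groups compared alone, Xist as a covariate, a block for the replicate number, a threshold of 0.01, and each library left out in turn.

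The 7 members and the lists of related genes and cell markers were chosen with earlier results of these data known. All 7 members were described in every comparison. Of each list, at most the 4 genes with the lowest adjusted p in any comparison were named, and the 5 genes closest to Cd74 and to H2-DMa by Spearman's rho on log2 CPM (prior count 2). Genes named outside this rule are defining markers at or near 0, overlapping or copied genes, and H2-K1, Cxcl9, Ptprc, Clec9a and Cd4, named for description. Some genes that the rule would name are not reported here. The scripts were tested on simulated data.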

Additional observations from a re-analysis of the deposited data

Results flagged for a closer look

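Among the 28 combinations of member and group, 10 had 1 library whose gap to its nearest neighbour exceeded Dixon's 95% critical value of 0.710 for 5 samples, a limit that chance passes in about 1 of 20 groups. WT untreated replicate 4 stood apart in 4 members, with 10.8 CPM of H2-Aa, 11 CPM of H2-Ab1, 7.11 CPM of H2-Eb1 and 76.0 CPM of Cd74. WWP2-/- untreated replicate 2 stood apart in the same 4, with 4.53 CPM of H2-Aa, 4.56 CPM of H2-Ab1, 2.90 CPM of H2-Eb1 and 34.3 CPM of Cd74. H2-DMa was at 8.84 CPM in WWP2-/- TGFβ1 replicate 4, against a highest value of 6.85 CPM in the rest of its group. Ciita was at 0.399 CPM in WT TGFβ1 replicate 3, on 20 counts, against at most 0.0817 CPM in the other libraries of that group. The members of 1 library are measured together, so these values are not separate observations.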

How the results depend on the processing

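The count of members called between genotypes under TGFβ1 was 1 and depended on the processing. It was 0 without a filter, with only the groups compared, with Xist as a covariate, at an adjusted p below 0.01 and without the 7 libraries above 10 CPM of Ptprc, an alternative chosen after seeing the data; it was 3 with the Wald test of DESeq2, and ranged from 0 to 3 when 1 library was left out. The fit without the 7 libraries kept 2 WWP2-/- and 5 WT libraries with TGFβ1, so a call is easily lost in it. The count remained 1 with DESeq2 size factors and with at least 10 counts in every library, where 3 members could be tested. In the other 4 comparisons it was 0 under every alternative. With Xist as a covariate the sign turned for H2-Eb1 between genotypes with TGFβ1 (-0.0729 on the log2 scale), H2-DMa between genotypes without it (-0.0356) and Ciita for TGFβ1 in WWP2-/- cells (-0.0469). Without the 7 libraries it turned for H2-Aa (-1.42) and H2-Eb1 (-0.60) between genotypes with TGFβ1, and for TGFβ1 in WWP2-/- cells for H2-Aa (-1.80), H2-Ab1 (-0.13), H2-Eb1 (-0.11), Cd74 (-0.50) and Ciita (-0.19). With 1 library left out, H2-DMa between untreated genotypes ran from -0.0577 to 0.171. The cause of the changes with the covariate and with single libraries was not tested. Most of the other log2 fold changes passed under neither fit, so their side of the threshold says little about size: between genotypes with TGFβ1, Cd74 went from 5.21 to 2.50 with Xist as a covariate and to 0.28 without the 7 libraries, and H2-Ab1 from 3.71 to 1.74 and 0.42. The 7 libraries include the 6 with the most Cd74, H2-Aa, H2-Ab1 and H2-Eb1, so those changes were fixed by the choice. The genes called in all between genotypes under TGFβ1 numbered 1238, against 790 without a filter, 569 with only the groups compared, 544 with Xist as a covariate and 2672 with DESeq2. Low counts limit H2-Aa and Ciita most.

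The replicate number as a block gave 1 member called between genotypes under TGFβ1 and 0 in the other comparisons, and 670 genes in all in place of 1238. Deviations of the 20 pairs of libraries with the same number correlated between -0.522 and 0.443, and 10 exceeded 0.1, so the numbers were not taken to pair libraries.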
